A study of Mus musculus with 12 samples.

Results

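Leucine-rich-repeat and neurexin adhesion genes of the synapse were followed in the hippocampus after knockdown (KD) of Hp1bp3, a chromatin protein related to the linker histones, in the inbred mouse strains C57BL/6J (B6) and DBA/2J (D2). The group comprised 9 of the 22236 genes in the count table: Flrt1, Flrt2, Flrt3, Lrrtm1, Lrrtm2, Lrrtm3, Lrrtm4, Nrxn2 and Nrxn3. They were taken by gene symbol, and 9 of 9 passed the filter on low counts that left 15853 genes for testing. Flrt1 was selected because its response to KD differed between the strains, so its KD and strain differences are given as a description without a test. The other 8 genes were taken because of their gene family.

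Total RNA from whole hippocampus of individual male mice was sequenced. Each hippocampus had been injected on both sides with an adeno-associated virus (AAV). The authors asked how reduced Hp1bp3 in the hippocampus might harm cognition. They used both strains to look for effects that hold across genetic backgrounds. B6 Ctrl and D2 Ctrl mice received AAV-scrmb-shRNA, a scrambled hairpin, and B6 KD and D2 KD mice received AAV9-shRNA-Hp1bp3, a hairpin against Hp1bp3. There were 3 mice in each of the 4 groups. All 12 mice were injected at 3 to 5 months of age and had carried a virus for at least 6 weeks, so that no uninjected animal was among them. The virus reaches only part of the cells of the dissected tissue, and each value is an average over all cells of the hippocampus.

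Synaptic adhesion proteins hold the presynaptic and the postsynaptic membrane together and recruit the machinery of each side. Neurexins are presynaptic receptors that bind many postsynaptic ligands, among them neuroligins and the leucine-rich repeat transmembrane (LRRTM) proteins of excitatory synapses. The fibronectin leucine-rich transmembrane (FLRT) proteins bind presynaptic latrophilins, which are adhesion G protein-coupled receptors, and also bind Unc5 receptors, through which they can repel growing axons and migrating neurons. In the hippocampus these families act on dentate granule cells and pyramidal cells, where they help to set the number and strength of excitatory contacts.

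Library totals ran from 18213084 to 39420219 expected counts. Normalized counts of Hp1bp3, the targeted transcript, averaged 9182 ± 308 for B6 Ctrl against 6200 ± 1240 for KD (SD, n = 3), a log2 fold change of -0.54 ± 0.15 (SE), and 6792 ± 258 for D2 Ctrl against 5719 ± 1080 for KD (-0.25 ± 0.15). The adjusted p-values of these differences in edgeR were 0.076 and 1. As the planned target, Hp1bp3 had an unadjusted edgeR p of 0.0044 in B6 and 0.13 in D2. Averaged over the strains its difference was -0.39 ± 0.11 (edgeR unadjusted p = 0.0037, adjusted p = 0.091). The authors reported a knockdown in mRNA and, by western blot, in hippocampal protein. The library labelled D2 KD 3 held 6941, among the 6504 to 7002 of the D2 Ctrl libraries, so that its label was not borne out by the transcript, and KD differences of the 9 genes in D2 are also given without it. In B6 KD the transcript was at 5539, 5429 and 7633, so that B6 KD 3 lay nearest to the B6 Ctrl libraries (8826 to 9372). Choroid plexus markers, which report tissue carried along in dissection, split the libraries within every group: the summed normalized count of 5 markers was 1756 to 5739 in 5 libraries and 81253 to 153536 in the other 7. Neuron markers were present in every library, with a summed count of 149557 to 190829 for 7 genes.

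The 9 genes differed in structure and surroundings. In GENCODE M21 (GRCm38), Flrt1 (ENSMUSG00000047787) lay at chr19:7092001-7105729 on the minus strand, inside Macrod1 on the opposite strand. Flrt2 (ENSMUSG00000047414) lay at chr12:95692226-95785215 and Flrt3 (ENSMUSG00000051379) at chr2:140650914-140671469, the latter inside Macrod2 on the opposite strand. Each FLRT gene had its whole coding sequence in 1 exon. Among the LRRTM genes, Lrrtm1 (ENSMUSG00000060780, chr6:77242689-77257791) lay inside the alpha-catenin gene Ctnna2. Lrrtm2 (ENSMUSG00000071862, chr18:35209003-35215024) lay inside Ctnna1 and Lrrtm3 (ENSMUSG00000042846, chr10:63928472-64090277) inside Ctnna3, all on the strand opposite to the host. Lrrtm4 (ENSMUSG00000052581) spanned chr6:80018877-80810143 with no host gene. The neurexin genes had many coding exons: Nrxn2 (ENSMUSG00000033768, chr19:6418731-6544169) had 22 and Nrxn3 (ENSMUSG00000066392, chr12:88722876-90334935) had 20 in the representative transcript.

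These arrangements limit what a gene-level count can show. Neurexin genes make long alpha and short beta forms from separate promoters, and a count per gene cannot tell these forms apart. Lrrtm2 shared 95 exon bases with Ctnna1, and Nrxn2 shared 682 exon bases with Slc22a12 on the opposite strand. Among annotated transcripts outside the count table, also on the opposite strand, the antisense gene Gm4409 shared 1543 exon bases with Lrrtm4, Gm37980 shared 439 with Nrxn3 and the antisense gene Gm14964 shared 207 with Nrxn2. Whether counting used the strand is not given in the sources used here. The other 4 nested genes shared no exon base with their hosts, so reads in their exons could be mistaken only for unspliced host RNA.

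Per kilobase of exon, Lrrtm1 and Nrxn2 stood highest, at 843 ± 111 and 772 ± 104 normalized counts per kb (SD over 12 libraries), where all annotated exons of a gene were joined. Nrxn3 followed at 484 ± 104, Lrrtm2 at 386 ± 52.3 and Flrt3 at 320 ± 24.8. At the low end were Flrt2 (240 ± 46.1), Lrrtm4 (191 ± 40.4), Flrt1 (182 ± 33.6) and Lrrtm3 (171 ± 36.6). The range of every gene over the 12 libraries overlapped that of its neighbour in this order. Ranges do not pair the genes within a library, so this overlap does not show that neighbours were level. The order also depended on the gene model: with the length of the representative transcript, Nrxn2 stood alone at the top with 1689 ± 227 per kb, above the range of Lrrtm1 at 865 ± 114, and Flrt1 stood lowest.

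Flrt1, the FLRT member selected for this pattern, was lower after KD in B6 and higher after KD in D2. Normalized counts in B6 Ctrl were 1298, 1260 and 1183, and B6 KD libraries held 876, 849 and 660. In D2 Ctrl they were 986, 1191 and 983, and in D2 KD they were 1222, 1162 and 1184. The B6 groups did not overlap, since the highest KD library (876) lay below the lowest Ctrl library (1183), whereas in D2 the second Ctrl library lay among the KD libraries. B6 KD 3, the lowest at 660, was also the B6 KD library with the highest Hp1bp3 (7633). Without B6 KD 3 the KD difference of Flrt1 in B6 was -0.54 ± 0.10 on the log2 scale (SE).

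Expressed as group means (± SD, n = 3), Flrt1 was at 1247 ± 58.7 in B6 Ctrl and 795 ± 118 after KD, 63.7% of the Ctrl level (log2 fold change -0.63 ± 0.11, SE). In D2 the means were 1053 ± 119 and 1189 ± 30.4, 12.9% higher after KD (0.18 ± 0.11), and without the library labelled D2 KD 3 it was 0.18 ± 0.13. The KD difference in D2 minus that in B6 was 0.81 ± 0.16 on the log2 scale. These are the values that chose the gene, and no test of them is given. Set by strain, D2 stood at 84.5% of the B6 level in Ctrl (log2 fold change -0.24 ± 0.11) and was 49.6% higher in KD (0.56 ± 0.11).

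**Figure D1:**
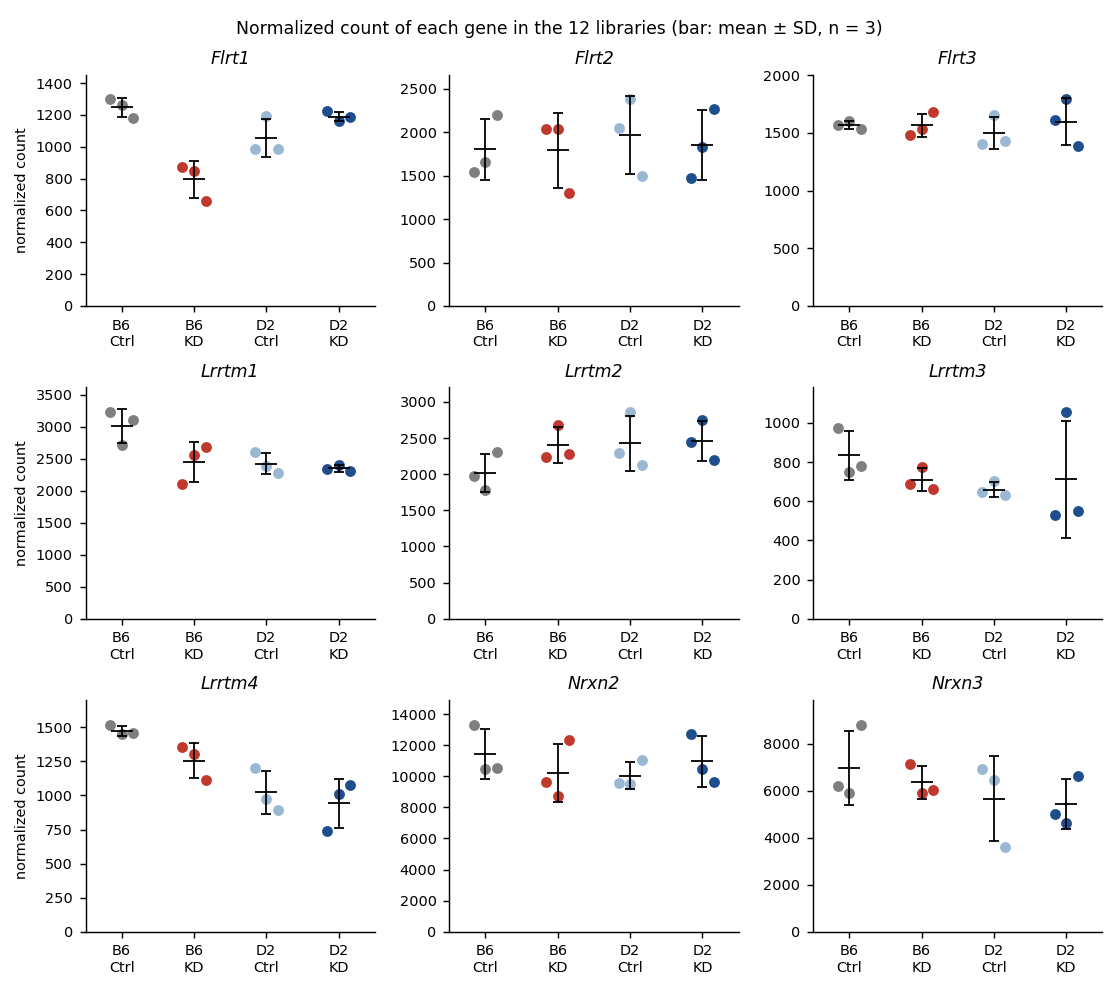
Normalized count (vertical axis, from 0) of each of the 9 genes in the 12 libraries, 1 point per library, with the mean and SD of each group of 3 as bars. Flrt1 in B6 KD (660 to 876) lies below all other groups, and Lrrtm4 in both D2 groups lies below B6 Ctrl.

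Averaged over the strains, the KD difference of Flrt1 was -0.22 ± 0.08, and averaged over treatments its D2 against B6 difference was 0.16 ± 0.08. Both averages are made of the values that chose the gene and are likewise given without a test.

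Several marker lists moved with the B6 treatment groups in which Flrt1 differed. All 8 interferon response markers were called higher in B6 KD, where edgeR called 2.64% of all genes. Their summed normalized count was 11558 to 35479 against 1928 to 2285 in B6 Ctrl. In D2 the same sums were 2703 to 13185 in KD and 2201 to 5631 in Ctrl, and the 2703 was D2 KD 3. There 0 of 8 were called, as were 0.0% of all genes. All 8 were nevertheless higher in D2 KD, with a median log2 fold change of 1.53. Of these, 7 had an unadjusted p under 0.05 in edgeR, against 2.85% of all genes. Neuron markers summed to 149557 to 166727 in B6 KD and 176609 to 189564 in B6 Ctrl, and 0 of 7 were called. The 5 CA1 pyramidal cell markers summed to 15182 to 21758 against 21787 to 28357, a median log2 fold change of -0.48 with 0 of 5 called. CA3 pyramidal cell markers went the other way (median 0.23, 4 of 5 higher, 0 called). Dentate granule cell markers had a median of -0.025 (0 of 6 called). Choroid plexus markers were unevenly spread over these groups, at 4228 to 147954 in B6 KD and 2369 to 81253 in B6 Ctrl (median 1.69, 0 of 5 called). Microglia markers summed to 9210 to 14219 against 7408 to 8691, with 1 of 6 called, and astrocyte markers to 163044 to 217035 against 137829 to 165436, with 1 of 6 called. Their part in the Flrt1 difference was not tested. In bulk tissue, fewer cells of a type and less RNA per cell cannot be told apart.

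Macrod1, the host of Flrt1 and the gene of a mono-ADP-ribose hydrolase, did not have this pattern. Its normalized count averaged 247 ± 35.6 without and 197 ± 19.9 with KD in B6, and 282 ± 10.9 without and 227 ± 71.3 with KD in D2. The log2 fold changes after KD were -0.31 ± 0.20 in B6 and -0.31 ± 0.20 in D2 (edgeR adjusted p = 0.425 and 1). The genes whose log2 level most resembled that of Flrt1 over the 12 libraries, among 14180 genes compared, were Gm527 (r = 0.958), Grik3 (r = 0.902) and Gas7 (r = 0.877). Grik3, a kainate receptor subunit, had KD differences of -0.92 in B6 and 0.16 in D2. These genes were picked for likeness to a gene picked for its pattern, and no test of them is given.

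The other FLRT genes were not called after KD in either strain. Flrt3, a dendritic ligand of latrophilin that has been tied to dentate synapses, had the steadiest level of the group. The B6 means were 1568 ± 35.5 for Ctrl and 1566 ± 101 for KD, and the D2 means 1499 ± 139 and 1595 ± 204. The KD difference was 0.02 ± 0.10 in B6 and 0.09 ± 0.11 in D2 (edgeR adjusted p = 0.939 and 1). Flrt2, a ligand of Unc5 receptors and latrophilins, varied widely among mice of 1 group: in B6, Ctrl libraries ran from 1543 to 2200 and KD libraries from 1296 to 2043, and in D2 from 1492 to 2379 and from 1469 to 2266. All 4 groups overlapped. Its KD differences were 0.01 ± 0.23 in B6 and -0.08 ± 0.23 in D2 (edgeR adjusted p = 0.987 and 1).

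Among the LRRTM genes, Lrrtm1 came closest to a KD difference in B6. LRRTM1 is a postsynaptic ligand of neurexins at excitatory synapses. B6 Ctrl libraries had normalized counts of 3226, 2716 and 3101, and B6 KD libraries 2098, 2565 and 2678. In D2 Ctrl they were 2605, 2386 and 2275, and in D2 KD 2341, 2403 and 2302. The B6 groups did not overlap and the D2 groups did. The KD difference was -0.28 ± 0.10 in B6 (edgeR adjusted p = 0.158) and -0.04 ± 0.10 in D2 (edgeR adjusted p = 1), so it did not pass the test in either strain. Endothelial markers moved against Lrrtm1 within groups (r = -0.72 over 12 libraries), and their part was not tested. Every gene of the group was compared with every marker list, and this r was the largest in size for Lrrtm1. No p-value or adjustment was computed for r values with markers, so they are descriptions only.

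Lrrtm2, which helps to retain AMPA receptors at the synapse, had the opposite sign in B6. The B6 means were 2018 ± 262 for Ctrl and 2401 ± 248 for KD (log2 fold change 0.27 ± 0.14, edgeR adjusted p = 0.291), and 2427 ± 382 and 2461 ± 276 in D2 (0.02 ± 0.14, edgeR adjusted p = 1). The B6 value was 0.17 without B6 Ctrl 2 and 0.17 without B6 KD 2 (edgeR adjusted p = 0.548 and 0.615). Its host Ctnna1, a cell adhesion catenin with which it shares exon bases, was at 2147 ± 288 and 3105 ± 275 in the B6 groups (0.55 ± 0.13, edgeR adjusted p = 0.0507), and DESeq2 called it (0.53, adjusted p = 0.00304). Reads of the shared bases could go to either gene.

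Lrrtm3, a further neurexin ligand, was marked by a single library. Counts in D2 KD were 530, 1055 and 551, against 648, 702 and 630 in D2 Ctrl. B6 Ctrl libraries held 974, 747 and 780, and B6 KD libraries 687, 776 and 665. The second D2 KD library was the highest of all 12. The KD differences were -0.21 ± 0.23 in B6 and 0.12 ± 0.23 in D2 (edgeR adjusted p = 0.641 and 1), and without that library the D2 value was -0.29 ± 0.13 (edgeR adjusted p = 1). The B6 value was -0.12 without B6 Ctrl 1, and -0.05 with the choroid plexus score as a covariate (edgeR adjusted p = 0.856 and 0.94). D2 KD 2 had the lowest mean log2 CPM (count scaled to library size) of the 6 dentate granule cell markers, 4.59 against 5.07 to 6.25 in the other 11. Its summed normalized count of these markers, 8532, lay above the 8420 of D2 Ctrl 3. D2 KD 2 also had the lowest summed choroid plexus markers, 1756. Within groups, Lrrtm3 moved against the dentate (r = -0.75 over 12 libraries), excitatory neuron (r = -0.62) and choroid plexus markers (r = -0.61). It moved with the CA1 pyramidal cell markers (r = 0.66). In D2 KD 2, Lrrtm3 stood 0.62 above its group mean in log2 CPM, its largest deviation. These r values rest largely on that library, and no r without it was computed. Nrxn3 moved with the oligodendrocyte (r = 0.79), dentate (r = 0.77) and CA3 pyramidal cell markers (r = 0.61), and against the interferon response markers (r = -0.69). The r values given for Lrrtm3 and Nrxn3 were the largest in size over all marker lists, without a p-value or adjustment. The part of these tissues and cell types was not tested.

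Lrrtm4 binds neurexins and the heparan sulfate of glypicans and acts at synapses on dentate granule cells. B6 Ctrl libraries held 1517, 1451 and 1459 normalized counts, and B6 KD libraries 1358, 1302 and 1110. In D2 Ctrl they were 1201, 976 and 891, and in D2 KD 738, 1008 and 1080. Each B6 KD library lay below each B6 Ctrl library, while the D2 groups overlapped. The KD differences were -0.21 ± 0.15 in B6 and -0.12 ± 0.15 in D2 (edgeR adjusted p = 0.446 and 1).

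The neurexins had the highest normalized counts of the group. Nrxn2 averaged 11442 ± 1610 in Ctrl and 10229 ± 1870 in KD mice of B6, and 10040 ± 856 and 10952 ± 1620 in those of D2. Its KD differences were -0.14 ± 0.16 and 0.13 ± 0.16 (edgeR adjusted p = 0.662 and 1). The B6 value ran from -0.33 without B6 KD 3 to -0.05 without B6 Ctrl 1 (edgeR adjusted p = 0.204 and 0.913). Nrxn3 was at 6970 ± 1580 and 6353 ± 691 in B6 and 5661 ± 1790 and 5420 ± 1060 in D2, with KD differences of -0.11 ± 0.24 and -0.06 ± 0.24 (edgeR adjusted p = 0.832 and 1). The third D2 Ctrl library held 3618, the lowest Nrxn3 value, and was also low in dentate markers (mean log2 CPM 5.07). By the same measure it was the lowest library in oligodendrocyte markers (7.61) and the highest in astrocyte markers (9.42).

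**Figure D2:**
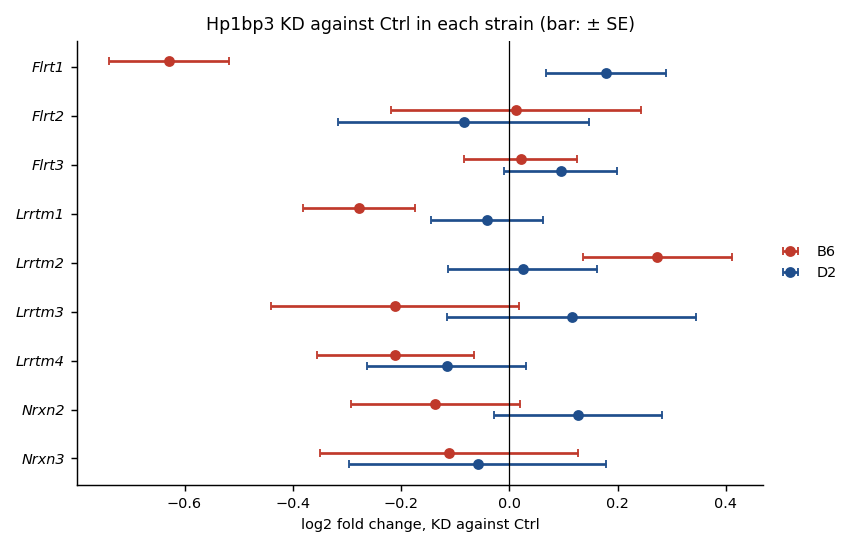
Log2 fold change of KD against Ctrl (horizontal axis, points with ± SE) for each of the 9 genes in B6 and in D2. Flrt1 stands at -0.63 in B6 and 0.18 in D2, and the other 8 genes lie between -0.28 and 0.27.

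Counted over the group, KD differences were few. In B6, 0 of the 8 genes other than Flrt1 were called by edgeR, 0 by DESeq2 and 0 by limma-voom, and 1, Lrrtm1, had an unadjusted p under 0.05. Over all genes tested, edgeR called 2.64% and DESeq2 10.6%, limma-voom called 368 genes, and 20.6% had an unadjusted p under 0.05 in edgeR. The median log2 fold change of these 8 genes was -0.12, against 0.00 over all genes tested. In D2, 0 of 8 were called by each of these tools, 0 had an unadjusted p under 0.05, and 0.0% of all genes were called by edgeR (2.85% at an unadjusted p under 0.05, and 1 called by DESeq2 and 0 by limma-voom). The medians were -0.01 for the 8 genes and 0.00 over all genes. With the library labelled D2 KD 3 left out, KD differences in D2 were -0.25 for Flrt2, 0.19 for Flrt3 and -0.03 for Lrrtm1. They were 0.10 for Lrrtm2, 0.27 for Lrrtm3, -0.22 for Lrrtm4, 0.21 for Nrxn2 and -0.23 for Nrxn3. Again 0 of 8 were called by edgeR, with adjusted p of 0.664 or more.

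For the strain by KD interaction, 0 of 8 genes were called by edgeR, DESeq2 or limma-voom and 0 had an unadjusted p under 0.05, with estimates from -0.25 to 0.33, where 0.0% of all genes were called by edgeR, with 937 at an unadjusted p under 0.05, and 11 called by DESeq2 and 0 by limma-voom. Averaged over the strains, edgeR called 0 of the 8 genes and 0.0% of all genes (3046 at an unadjusted p under 0.05, and 1241 called by DESeq2 and 0 by limma-voom). Without the library labelled D2 KD 3, edgeR called 799 of all genes there and again 0 of the 8. With all 12 libraries, DESeq2 and limma-voom called 0 of 8, and 0 had an unadjusted p under 0.05 in edgeR. Groups that did not overlap were found for 3 of the 9 genes in B6 (Flrt1, Lrrtm1 and Lrrtm4, each lower in KD) and for 0 of 9 in D2. Over all genes the same was found for 28.8% in B6 and 6.05% in D2, and Flrt1 was chosen on these values.

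Lrrtm4 was lower in D2 hippocampus than in B6. Averaged over treatments, the log2 difference of D2 against B6 was -0.48 ± 0.10 for Lrrtm4 (edgeR adjusted p = 0.00558), and the D2 mean of 982 normalized counts was 71.9% of the B6 mean of 1366. All 6 D2 libraries lay below the B6 mean, and the highest, 1201, lay above the lowest B6 library, 1110. The difference was called in all 11 other settings with every library (-0.49 to -0.46) and in all 12 fits that left out 1 library (-0.54 to -0.39). It was the 1 gene called of the 8 other than Flrt1, whereas 21.3% of all genes were called and 12.7% were called lower in D2.

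The strain difference of Lrrtm4 was similar in size within each treatment. In Ctrl it was -0.53 ± 0.15 (edgeR adjusted p = 0.0335), with no overlap between the strains, and Lrrtm4 was the only gene called of the 8 other than Flrt1. Over all genes, 14.0% were called in Ctrl and 8.75% were called lower in D2. The Ctrl call was lost with the choroid plexus score or the library total as a covariate (edgeR adjusted p = 0.055 and 0.106). It was also lost without any of the 3 B6 Ctrl libraries, D2 Ctrl 2, D2 Ctrl 3 or B6 KD 1 (-0.55 to -0.44, edgeR adjusted p = 0.051 to 0.123). In KD the difference was -0.43 ± 0.15 (edgeR adjusted p = 0.0752), the strains again did not overlap (as for 28.8% of all genes), and 0 of the 8 genes were called by edgeR, DESeq2 or limma-voom, with 1 at an unadjusted p under 0.05, where 15.0% of all genes were called. Without the library labelled D2 KD 3 the KD value was -0.54 ± 0.16 (edgeR adjusted p = 0.0564).

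The remaining LRRTM genes differed less between strains. Lrrtm1 was lower in D2 by -0.20 ± 0.07 on average (edgeR adjusted p = 0.0842) and by -0.31 ± 0.10 in Ctrl (edgeR adjusted p = 0.0716), where the strains did not overlap. It was called in Ctrl by DESeq2 (adjusted p = 0.0313), which called 16.9% of all genes there, and without B6 KD 1 it was called by edgeR both on average (-0.24, adjusted p = 0.0276) and in Ctrl (-0.31, adjusted p = 0.0398). In KD its difference was -0.08 ± 0.10 (edgeR adjusted p = 0.712). Lrrtm3 was lower in D2 by -0.17 ± 0.16 (edgeR adjusted p = 0.542), and without D2 KD 2 by -0.37 ± 0.08 (edgeR adjusted p = 0.00931). D2 KD 2 was the library with the lowest mean log2 CPM of dentate markers, though not with their lowest summed count. Its strain groups did not overlap in Ctrl (-0.34 ± 0.23, edgeR adjusted p = 0.453), and in KD the difference was -0.01 ± 0.23 (edgeR adjusted p = 0.988). Lrrtm2 was at 0.14 ± 0.10 (edgeR adjusted p = 0.387).

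Neither the other FLRT genes nor the neurexins were called between strains. The average D2 against B6 difference was 0.08 ± 0.16 for Flrt2 and -0.03 ± 0.07 for Flrt3 (edgeR adjusted p = 0.806 and 0.847). It was -0.05 ± 0.11 for Nrxn2 and -0.28 ± 0.17 for Nrxn3 (edgeR adjusted p = 0.802 and 0.319). In Ctrl, 3 of the 9 genes had strains that did not overlap, namely Lrrtm1, Lrrtm3 and Lrrtm4, all lower in D2, where 31.7% of all genes did not overlap. The median strain difference of the 8 genes other than Flrt1, averaged over treatments, was -0.11, against 0.02 over all genes tested.

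**Figure D3:**
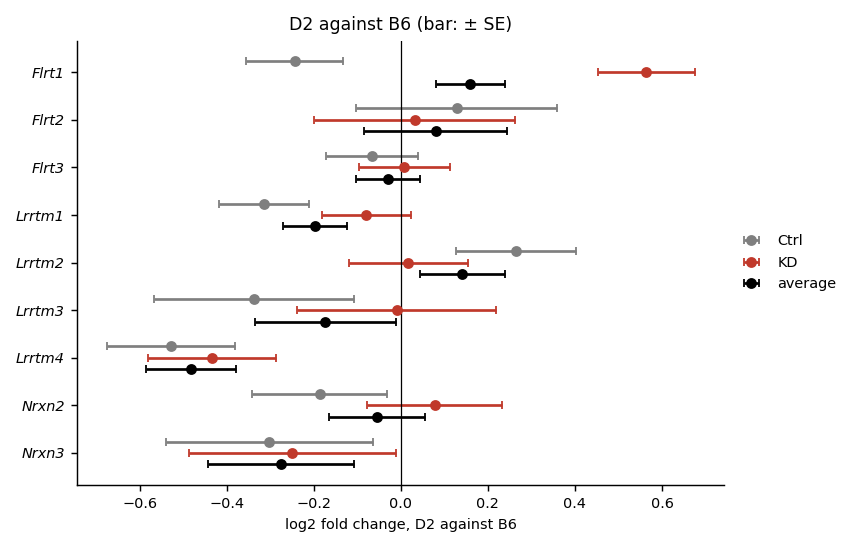
Log2 fold change of D2 against B6 (horizontal axis, points with ± SE) for each gene in Ctrl, in KD and averaged over treatments. The 3 estimates of Lrrtm4 lie between -0.53 and -0.43, and those of Flrt1 lie on both sides of 0.

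How the reads were assigned bears on these strain values. The reads of each mouse were aligned to the genome of its own strain, so a gene that is modelled differently in the 2 references can differ in count with no difference in RNA. Expected counts of Nrxn2 had decimals in 6 of 6 B6 libraries and in 0 of 6 D2 libraries, and those of Lrrtm4 in 3 of 6 B6 libraries and 0 of 6 D2 libraries. Decimals can arise where a read fits more than 1 place. The other 7 genes had whole counts in all 12 libraries. Outside the group, Hp1bp3 also had decimals in B6 (11427.78 in B6 Ctrl 1) and whole counts in D2 (7306 in D2 Ctrl 1). Ctnna3 had decimals in some B6 libraries (20.11 in B6 Ctrl 1) and whole counts in D2. Whole counts in D2 were therefore not particular to Nrxn2 and Lrrtm4. For Lrrtm4, a difference in RNA and a difference between references cannot be told apart here.

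Host genes were set beside their nested members. Macrod2, around Flrt3, was much lower in D2 (1580 against 570 normalized counts, log2 difference -1.47 ± 0.14, edgeR adjusted p = 1.27e-05), while Flrt3 was at -0.03. Ctnna3, around Lrrtm3, had low counts, at 24.9 in B6 and 13.2 in D2 (-0.91 ± 0.26, edgeR adjusted p = 0.0301). Ctnna2, around Lrrtm1, was at -0.30 ± 0.11 after KD in B6 (edgeR adjusted p = 0.155) and at 0.13 ± 0.08 between strains (edgeR adjusted p = 0.327), so that host and nested gene had the same sign after KD and opposite signs between strains.

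The partners of these proteins were described from lists chosen by function. Of 13 FLRT partners (latrophilins, teneurins, Unc5 receptors, Fgfr1 and Robo1), edgeR called 0 after KD in B6, with a median log2 fold change of -0.12 and 3 at an unadjusted p under 0.05 (20.6% of all genes). DESeq2 called 1, the latrophilin Adgrl1 (-0.30, adjusted p = 0.0327), against 10.6% of all genes, and limma-voom called 0. In D2, edgeR, DESeq2 and limma-voom called 0 of 13, with 0 at an unadjusted p under 0.05. Between strains, 3 of 13 were called and all were lower in D2. These were the teneurins Tenm1 (-2.91 ± 0.30, edgeR adjusted p = 2.71e-05) and Tenm4 (-0.52 ± 0.13, edgeR adjusted p = 0.0143) and the latrophilin Adgrl3 (-0.38 ± 0.12, edgeR adjusted p = 0.039). The mean normalized count of Tenm1 was 1186 in B6 Ctrl and 166 in D2 Ctrl, and a difference of this size cannot be told apart from a difference between the strain references. Without B6 Ctrl 3 only Tenm1 was called.

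Of 23 neurexin and LRRTM partners, edgeR called 0 after KD in B6 (6 at an unadjusted p under 0.05, against 20.6% of all genes, median -0.07) and 0 in D2 (2 at an unadjusted p under 0.05, against 2.85% of all genes, median 0.06). DESeq2 called 0 in D2 and limma-voom 0 in each strain. DESeq2 called 4 in B6, against 10.6% of all genes, which are named although their values had been seen: Dag1 was higher (0.29), and Grid1 (-0.35), Igsf21 (-0.51) and Mdga1 (-0.68) were lower. Between strains 10 of 23 were called, 4 higher and 6 lower in D2. The cerebellin receptor Grid1 (-0.48 ± 0.07), the calsyntenin Clstn1 (-0.41 ± 0.06) and the neuroligin Nlgn3 (-0.86 ± 0.12) were lower, with edgeR adjusted p from 0.000245 to 0.000328. Dag1, the gene of dystroglycan, was higher (0.45 ± 0.07, edgeR adjusted p = 0.000379), as was the secreted ligand C1ql3 (0.74 ± 0.12, edgeR adjusted p = 0.000947). The median over the list was 0.02, equal to that of all genes at this precision.

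Other synaptic organisers, 19 genes of the Slitrk, Lrfn, netrin-G ligand and receptor phosphatase families with Ntrk3, Il1rap and Il1rapl1, likewise had 0 called by edgeR after KD in B6 (1 at an unadjusted p under 0.05) and in D2 (0 at an unadjusted p under 0.05). DESeq2 called 1 in B6, Lrrc4b (-0.28, adjusted p = 0.0212), against 10.6% of all genes, and 0 in D2, and limma-voom called 0 in each. Between strains 7 of 19 were called, 2 higher and 5 lower in D2. The lower genes included Il1rapl1 (-2.69 ± 0.21, edgeR adjusted p = 2.84e-06), Slitrk4 (-1.05 ± 0.08, edgeR adjusted p = 3.39e-06) and Lrfn5 (-0.50 ± 0.09, edgeR adjusted p = 0.00166), and the neurotrophin receptor Ntrk3 was higher (0.64 ± 0.12, edgeR adjusted p = 0.00216). Against 21.3% of all genes, the shares called were those of 10 of 23, 7 of 19 and 3 of 13 partners and 1 of the 8 members other than Flrt1.

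**Figure D4:**
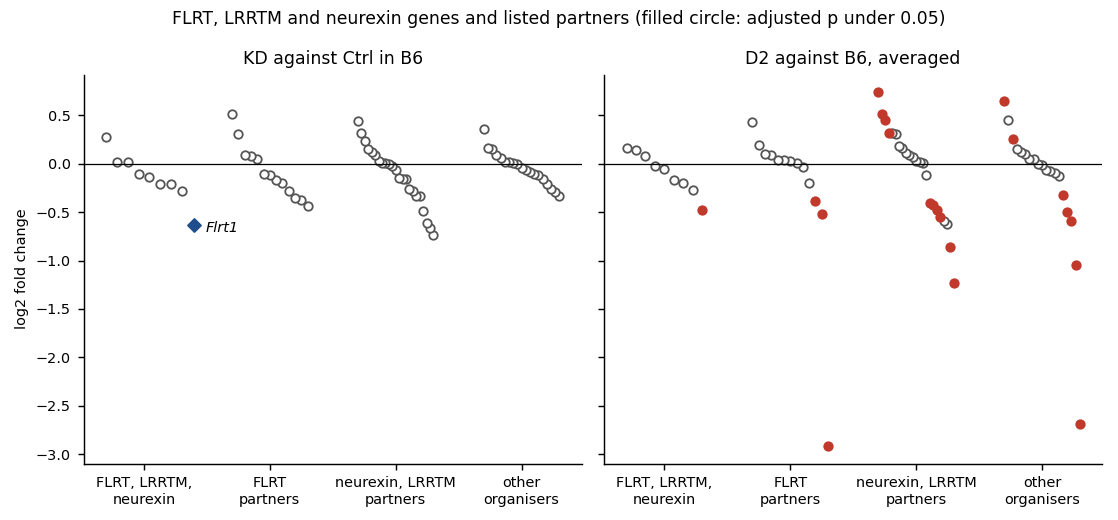
Log2 fold change (vertical axis) of each gene of the group and of the 3 partner lists, for KD against Ctrl in B6 and for D2 against B6 averaged over treatments. Circles are filled where the edgeR adjusted p was under 0.05. Flrt1 is a diamond on the KD side and an open circle on the strain side, and is given without a test on both. No circle is filled on the KD side, and 21 are filled on the strain side, 1 of them Lrrtm4.

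Within groups, the largest covariation among the 9 genes joined Flrt2 and the neurexins. After the group means were removed, Flrt2 and Nrxn2 moved in opposite directions over the 12 libraries (r = -0.883, exact permutation p = 0.00463, adjusted p = 0.167, Spearman rho = -0.783, exact permutation p = 0.0154, adjusted p = 0.554). Leaving out the 2 libraries farthest from the Flrt2 median gave r = -0.82. Flrt2 and Nrxn3 moved together (r = 0.731, exact permutation p = 0.0285, adjusted p = 0.513, rho = 0.664, exact permutation p = 0.044, adjusted p = 0.713, and r = 0.707 without the 2 farthest libraries). Permutations exchanged libraries within groups and were 2-sided, and none of the 36 pairs passed after Benjamini-Hochberg adjustment.

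Base composition moved with the same libraries. The GC content of the representative transcript was 41.8% for Flrt2, 38.4% for Lrrtm2 and 61.9% for Nrxn2, which placed Flrt2 and Lrrtm2 in the lowest GC decile of all genes and Nrxn2 in the highest. The GC contrast of a library, defined as the median log2 deviation of the highest GC decile minus that of the lowest, ran from -0.159 to 0.17. Within groups it moved against Flrt2 (r = -0.85) and Lrrtm2 (r = -0.73) and with Nrxn2 (r = 0.70) over the same 12 libraries. It also moved against Nrxn3 (r = -0.61, GC decile 4) and Flrt1 (r = -0.58, decile 7). The values were -0.37 for Lrrtm4, -0.28 for Lrrtm3, -0.15 for Flrt3 and 0.17 for Lrrtm1. Oligodendrocyte markers moved with Flrt2 (r = 0.68) and Nrxn3 (r = 0.79) and against Nrxn2 (r = -0.69). For each of these genes the oligodendrocyte value was the largest in size over all marker lists, and no adjustment was made. The part of GC or of oligodendrocytes in the covariation was not tested. With a GC offset in the fit, added after seeing the data, Flrt1 in B6 and Lrrtm4 between strains kept their direction. Flrt2 (-0.071) and Flrt3 (-0.0185) after KD in B6 and Lrrtm3 between strains in KD (0.0072) changed sign, all near 0. Genes in the GC decile of Flrt1 had a median KD difference of 0.003 in B6. The kept direction of Flrt1, chosen on this value, therefore does not decide the part of GC.

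**Figure D5:**
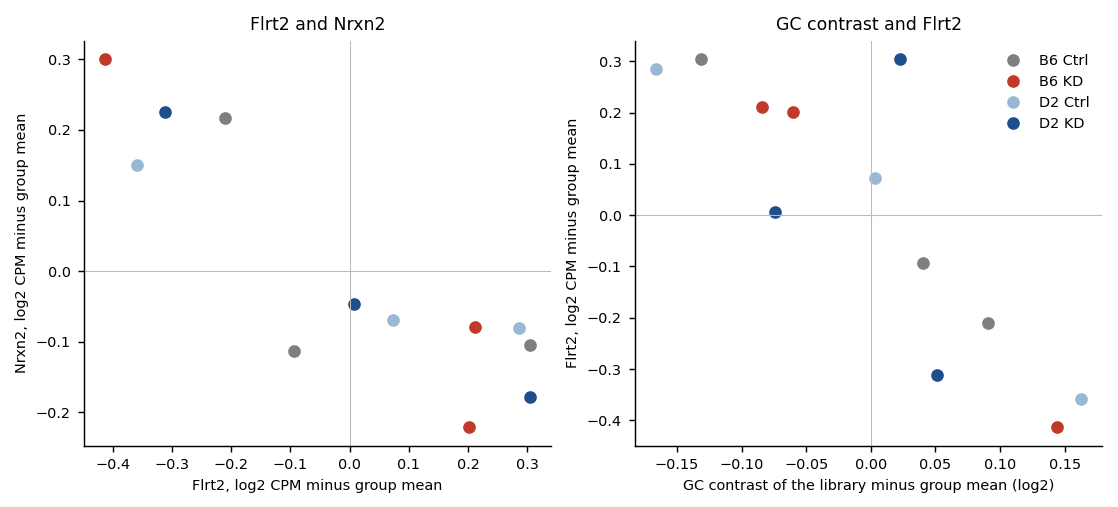
Log2 CPM minus the group mean in the 12 libraries for Nrxn2 against Flrt2 (left) and for Flrt2 against the GC contrast of the library minus its group mean (right), 1 point per library coloured by group. Libraries high in Flrt2 are low in Nrxn2 (r = -0.883) and have a low GC contrast (r = -0.85).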

How the data were processed

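Messenger RNA of 12 hippocampi was sequenced, 3 per strain and treatment. The authors aligned the reads of each mouse to its own strain's genome and estimated gene expression with RSEM 1.2.12 and Bowtie2 2.2.0, per the submitters' processing notes, which also name GRCm38 and mm10. The authors joined the reads of 2 sequencing runs for 10 of 12 samples. The expected counts the authors deposited were left unnormalized. The deposited normalized signal, called normalized count here, is the truncated count divided by a DESeq2 size factor per library, and multiplying back gave whole reads for 100% of 266784 values (tolerance 0.001).

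Here expected counts were rounded, filtered with filterByExpr and fitted in edgeR 4.0.16 (R 4.3.3) with TMM, a mean per group and robust quasi-likelihood F-tests. Benjamini-Hochberg adjustment ran over 15853 genes, with a threshold of 0.05. Standard errors are the fold change over the square root of F and are approximate. Log2 CPM had 1 added before the logarithm. DESeq2 1.42.0, limma-voom 3.58.1 and other settings were alternatives, and the fits were tested on simulated data. Replicate numbers follow deposit order and only name libraries. The p-values of the fits set group differences against the spread between these mice. The labels do not say how the mice were bred or batched, so effects of breeding or batch cannot be told apart from group differences.

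The genes and lists were chosen with earlier results of these data known. The text names the 9 genes, Hp1bp3, host genes, up to 6 called genes per list and comparison, and the 3 genes most like Flrt1 with a mean CPM of at least 1. 1 item that this rule would name is not reported here. Gene models came from GENCODE M21, which held 21933 of the 22236 identifiers.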

Additional observations from a re-analysis of the deposited data

Results flagged for a closer look

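Flrt1 was set apart because its KD libraries lay on opposite sides of their own Ctrl mean in the strains. All 3 B6 KD libraries (660 to 876 normalized counts) lay below the B6 Ctrl mean of 1247, and all 3 D2 KD libraries (1162 to 1222) lay above the D2 Ctrl mean of 1053. Put the other way, all 3 D2 Ctrl libraries lay below the B6 Ctrl mean and all 3 D2 KD libraries above the B6 KD mean of 795. Both statements are the same log2 difference of 0.81 ± 0.16. The difference was not tested here, because Flrt1 was chosen for it. None of the other 8 genes met this description.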

How the results depend on the processing

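No paired analysis was possible because the labels give no replicate numbers shared between groups. Of 37 values recomputed for single genes, 31 kept their direction and their side of the threshold in all 11 settings with every library. For Flrt1 the log2 difference after KD ran from -0.73 to -0.54 in B6 and from 0.12 to 0.27 in D2 when 1 library was left out. For D2 against B6 in Ctrl, genes called other than Flrt1 were 2 with DESeq2 and 0 with the library total or the choroid plexus score as a covariate, and 0 to 1 with 1 library left out. Averaged over treatments they were 1 to 2 with 1 library left out. FLRT partners called after KD in B6 were 1 with DESeq2 and 0 to 1 with 1 library left out (Adgrl1 without B6 KD 3), and between strains 1 to 3. Neurexin and LRRTM partners called were 4 in B6 and 1 averaged over strains with DESeq2, and 0 to 1 in each with 1 library left out (in B6, Dag1 without B6 KD 3, Grid1 without D2 Ctrl 3 and Nxph3 without D2 KD 1, and averaged over strains, Mdga1 without D2 Ctrl 3 or D2 KD 3). Other organisers called in B6 were 1 with DESeq2. The cause was not tested.

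Estimates near 0 changed sign. Flrt2 after KD in B6 was -0.00724 with DESeq2, -0.00291 with limma-voom, -0.00776 with RLE size factors, -0.0201 with the total as covariate and -0.071 with the GC offset, and in D2 0.014 with the total as covariate. Flrt3 in B6 was -0.000925 with DESeq2, -0.00143 with RLE and -0.018 with the GC offset. Lrrtm3 between strains in KD was 0.0078 with DESeq2, 0.0081 with RLE and 0.0072 with the GC offset.

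Leaving out 1 library, log2 differences after KD in B6 ran from -0.12 to 0.17 for Flrt2, -0.068 to 0.031 for Flrt3 and -0.24 to 0.066 for Nrxn3. After KD in D2 they ran from -0.25 to 0.0695 for Flrt2, -0.00035 to 0.19 for Flrt3, -0.0799 to 0.000796 for Lrrtm1, -0.065 to 0.16 for Lrrtm2, -0.29 to 0.27 for Lrrtm3, -0.22 to 0.019 for Lrrtm4, -0.0078 to 0.21 for Nrxn2 and -0.30 to 0.10 for Nrxn3. Between strains on average they ran from -0.0027 to 0.18 for Flrt2, -0.076 to 0.019 for Flrt3 and -0.10 to 0.039 for Nrxn2. In KD they ran from -0.16 to 0.018 for Lrrtm1 and -0.41 to 0.18 for Lrrtm3. With 3 mice per group, the spread between mice limits all values.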
